A study of Mus musculus with 4 samples.

Results

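A set of 10 genes of host defence proteins was followed in mouse macrophages given extracellular vesicles (EVs), which are small membrane-bound particles shed by cells. The genes were Saa3, Lcn2, Lyz1, Lyz2, S100a8, S100a9, Camp, Ngp, Elane and Mpo, taken from the deposited count table by their gene symbols. All 10 of 10 symbols were found among the 38087 genes of the table, with 1 row each. The cells were bone marrow-derived macrophages of C57BL/6 mice aged 6 to 8 weeks, grown for 5 to 7 days with 30% L929-conditioned medium, a source of macrophage growth factor. Cells of 3 groups were exposed for 16 h to EVs from Beas2B, a human lung epithelial line that had been transfected with miR-17 mimics (miR-17 EV), miR-93 mimics (miR-93 EV) or scrambled control RNA (control EV). Cells of the fourth group, labelled WT, had no RNA named in their label and are called unexposed here. RNA of 4 biological replicates was pooled into 1 library for each group. The 4 libraries can therefore be compared with each other, but the spread between cultures was not measured and no test between conditions was possible.

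These genes come from 2 arms of innate defence. Serum amyloid A and lipocalin 2 are acute phase proteins, induced by inflammatory cytokines and microbial products. Lysozyme, the S100A8 and S100A9 pair, cathelicidin, neutrophilic granule protein, neutrophil elastase and myeloperoxidase are antimicrobial proteins best known from phagocytes, and most of them are stored in neutrophil granules. Elane and Mpo are transcribed early in granulocyte development and packed into primary granules, while Camp, Ngp and Lcn2 are transcribed later and belong to the secondary granules. Macrophages keep lysozyme at a high level and can make Saa3 and Lcn2 when stimulated.

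The libraries held 22607247 reads in genes for miR-17 EV, 22247527 for miR-93 EV, 17815250 for control EV and 19705482 for unexposed. Counts were divided by size factors of 1.13, 1.10, 0.854 and 0.949 in that order of libraries. Control EV stood apart in aligned bases per read, computed for each gene as average coverage times gene span divided by reads. The median was taken over genes with at least 100 reads on average. It was 96.4 with miR-17 EV, 98.7 with miR-93 EV, 114 with control EV and 103 in unexposed. Macrophage markers were present in every library, with 8 of 8 at or above 20 normalized counts and sums of 142506 normalized counts with miR-17 EV, 138740 with miR-93 EV, 155919 with control EV and 149581 in unexposed. Of 10 neutrophil markers only Mmp8, Csf3r and Hdc reached 20 normalized counts on average, and Ly6g had 1, 0, 1 and 1 reads in the same order. A ratio between 2 libraries is given with its 95% exact interval, which covers counting error only. A gene was called different in a pair when its normalized count plus 1 differed 2-fold or more, its interval left out 1, and both libraries together averaged 20 normalized counts or more.

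The 10 genes fell into 2 sets of 5 by level. Saa3, Lcn2, S100a8, Lyz1 and Lyz2 were above the minimum of 20 normalized counts in every library, whereas S100a9, Camp, Ngp, Elane and Mpo were below it in every library. Per kilobase of principal transcript, Lyz2 was the highest in every library, followed by Saa3, Lyz1, S100a8 and Lcn2. In unexposed cells these levels were 389147, 30324, 17375, 1186 and 451 normalized counts per kilobase, in that order of genes. The plot of reads by library shows both sets.

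**Figure D1:**
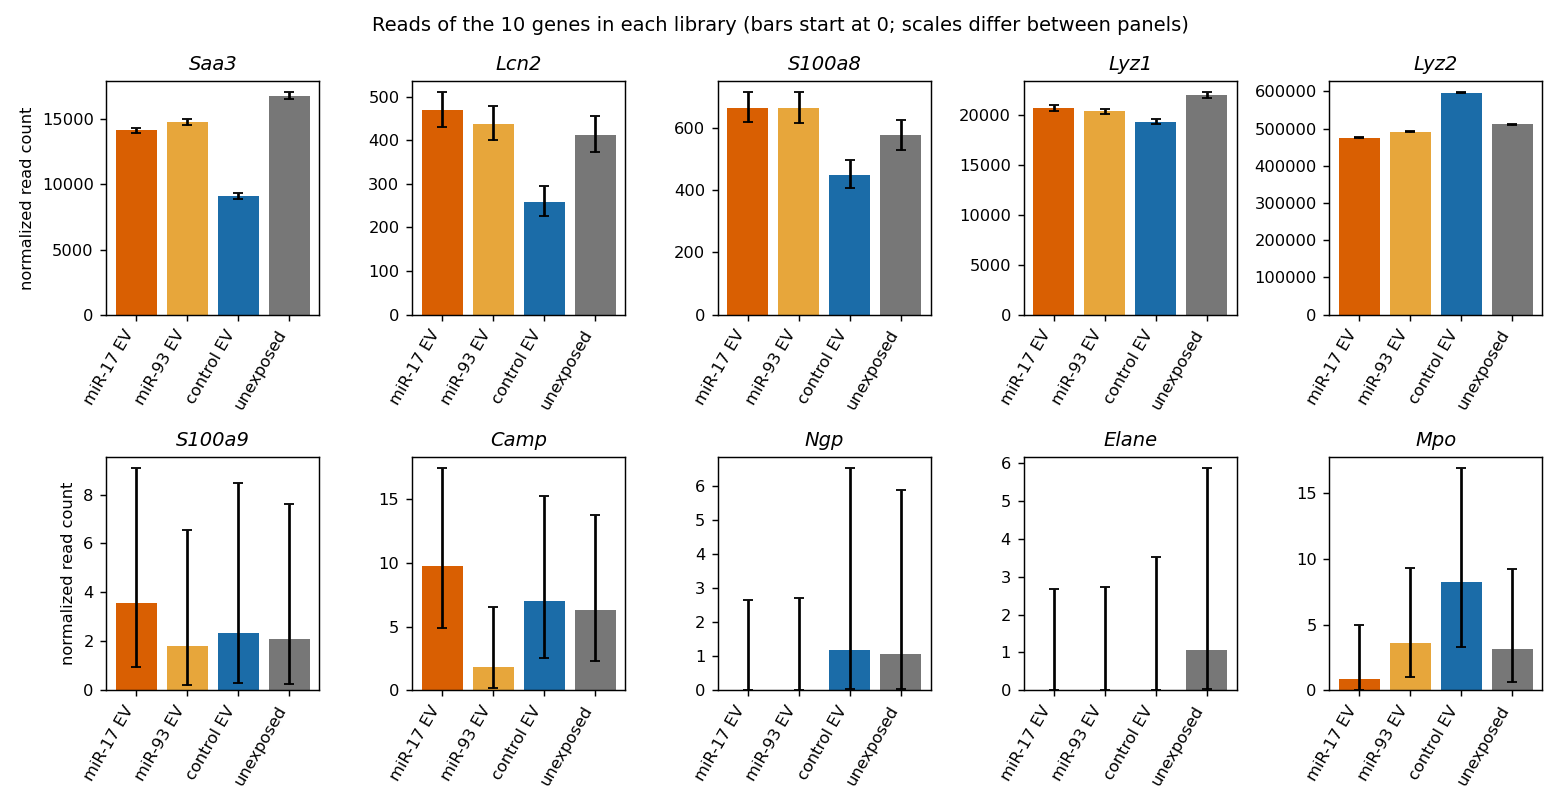
Normalized read counts of the 10 genes in the 4 libraries, 1 bar per library, with a separate axis for each gene. Error bars are exact Poisson 95% intervals of counting error, and for a count of 0 they end at 3 reads. Saa3, Lcn2 and S100a8 were lowest in control EV, at 9119.8, 259 and 449.7 normalized counts, and the genes of the bottom row had 0 to 11 reads in every library.

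Saa3 encodes serum amyloid A3, the form of this acute phase apolipoprotein that mouse macrophages and other cells outside the liver make. The gene (ENSMUSG00000040026) lies on chromosome 7 at 46711998 to 46715676, minus strand, mm10. Saa3 had 15949 reads with miR-17 EV, 16336 with miR-93 EV, 7787 with control EV and 15970 in unexposed. After scaling these were 14154, 14788, 9119.8 and 16829.8 normalized counts in the same order. Saa3 was thus among the most abundant transcripts, at rank 137 of all genes with miR-17 EV, 131 with miR-93 EV, 285 with control EV and 122 in unexposed. Control EV was the low library, and both mimic libraries lay between it and unexposed.

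The ratio of Saa3 in control EV over unexposed was 0.542 (95% interval 0.527 to 0.557), a log2 ratio of −0.88. Of 15294 genes tested in this pair, 1.16% were at or below that value, and of the 4043 genes with a pair mean of at least 1000 normalized counts, 5 were, Saa3 included. The level was closer to unexposed with the other EVs. Saa3 had a ratio of 0.841 (0.823 to 0.860) in miR-17 EV over unexposed and 0.879 (0.860 to 0.898) in miR-93 EV over unexposed. Of genes with a pair mean of at least 1000, 248 of 4051 and 627 of 4047 were at or below these values. Against control EV the ratio was 1.55 (1.51 to 1.59) in miR-17 EV and 1.62 (1.58 to 1.67) in miR-93 EV. These last comparisons use the same control EV library as the first, so its low value enters all of them. The 2 mimic libraries differed little from each other, with a ratio of 1.04 (1.02 to 1.07) for miR-93 EV over miR-17 EV.

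Lcn2 encodes lipocalin 2, which binds bacterial siderophores and so withholds iron from bacteria. The gene (ENSMUSG00000026822) lies on chromosome 2 at 32384633 to 32387797, minus strand. Lcn2 had 528 reads with miR-17 EV, 484 with miR-93 EV, 221 with control EV and 392 in unexposed, or 469, 438, 259 and 413 normalized counts. Control EV was again the low library. The ratio of control EV over unexposed was 0.627 (95% interval 0.529 to 0.741). Against control EV, Lcn2 had a ratio of 1.81 (1.54 to 2.13) in miR-17 EV and 1.69 (1.44 to 1.99) in miR-93 EV. Neither mimic library could be told from unexposed at this depth, with ratios of 1.13 (0.993 to 1.30) for miR-17 EV and 1.06 (0.926 to 1.21) for miR-93 EV. The miR-93 EV over miR-17 EV ratio was 0.935 (0.825 to 1.06). In the authors' deposited table of changed genes, the log2 differences of Lcn2 were larger. They were 1.17 for miR-17 EV over control EV, 0.98 for miR-93 EV over control EV and −0.85 for control EV over unexposed. Saa3, S100a8, Lyz1 and Lyz2 were not in that table.

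S100a8 encodes a calcium-binding protein that pairs with S100A9 to form calprotectin, which sequesters zinc and manganese. The gene (ENSMUSG00000056054) lies on chromosome 3 at 90669071 to 90670034, plus strand. S100a8 had 750 reads with miR-17 EV, 734 with miR-93 EV, 384 with control EV and 547 in unexposed, or 666, 664, 449.7 and 576 normalized counts. The libraries kept the same low member, but the steps were smaller than for Saa3 and Lcn2. The ratio of control EV over unexposed was 0.780 (95% interval 0.683 to 0.891). S100a8 was 1.48 (1.31 to 1.68) in miR-17 EV and 1.48 (1.30 to 1.68) in miR-93 EV as a ratio over control EV. Unlike Saa3, it was somewhat above unexposed in both mimic libraries, with a ratio of 1.15 (1.03 to 1.29) in each. The 2 mimic libraries had a ratio of 0.998 (0.901 to 1.11), miR-93 EV over miR-17 EV.

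S100a9, the partner gene on the same chromosome (ENSMUSG00000056071, 90692632 to 90695721, minus strand), was almost without reads. It had 4 reads in miR-17 EV and 2 in each of miR-93 EV, control EV and unexposed. S100a9 therefore made up 0.531% of the reads of the pair in miR-17 EV (exact binomial 95% interval 0.145 to 1.35), 0.272% in miR-93 EV (0.0329 to 0.978), 0.518% in control EV (0.0628 to 1.86) and 0.364% in unexposed (0.0441 to 1.31). The pair was unequal in all 4 libraries, and the shares could not be told apart at this depth. The principal transcripts of both genes are short, 486 bases for S100a8 and 519 for S100a9. The S100a8 gene span of 964 bases, less the bases listed as low in coverage, left 384 with miR-17 EV and 383 with miR-93 EV. It left 323 with control EV, which had the fewest S100a8 reads, and 384 in unexposed. The depth below which a base is listed as low is not given in the sources used here.

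Saa3, Lcn2 and S100a8 thus had their lowest value in the same library, and the promoters of these 3 genes are given here for that reason. Lyz1 was lowest in that library too, by less, at a ratio of 0.880 in control EV over unexposed, and its window is not shown. Each runs 5′ to 3′ from 250 bases before to 50 bases after the transcript start in RefSeq (GRCm38.p6), where all 10 of 10 genes had an entry. Capitals mark matches to 3 motifs that were searched on both strands and found in these windows: TTNNGCAA for C/EBP factors, GAGGAA for PU.1 and TATAAA for the TATA box. C/EBP factors drive acute phase and granule genes, and PU.1 is the master regulator of the macrophage lineage.
Saa3 (chr7:46715627-46715926, minus strand): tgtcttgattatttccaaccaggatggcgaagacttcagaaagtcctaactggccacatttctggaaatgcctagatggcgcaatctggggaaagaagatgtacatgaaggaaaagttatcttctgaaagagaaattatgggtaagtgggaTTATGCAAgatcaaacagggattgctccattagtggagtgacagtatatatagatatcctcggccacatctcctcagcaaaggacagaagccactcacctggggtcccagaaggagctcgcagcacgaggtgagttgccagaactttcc
Lcn2 (chr2:32387690-32387989, minus strand): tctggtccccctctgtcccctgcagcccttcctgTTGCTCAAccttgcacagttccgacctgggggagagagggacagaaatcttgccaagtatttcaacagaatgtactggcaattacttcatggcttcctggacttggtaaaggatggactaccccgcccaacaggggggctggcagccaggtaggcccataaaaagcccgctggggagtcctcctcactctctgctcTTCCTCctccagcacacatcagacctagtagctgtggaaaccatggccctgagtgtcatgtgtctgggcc
S100a8 (chr3:90668821-90669120, plus strand): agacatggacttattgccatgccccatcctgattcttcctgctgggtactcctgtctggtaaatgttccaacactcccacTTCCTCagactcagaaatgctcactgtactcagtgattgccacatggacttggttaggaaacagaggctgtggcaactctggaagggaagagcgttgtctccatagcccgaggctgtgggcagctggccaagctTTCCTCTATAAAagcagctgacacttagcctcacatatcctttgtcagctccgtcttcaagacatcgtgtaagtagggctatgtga

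The Saa3 window held a C/EBP match at −99 to −92 from the start base, counted as 0. The Lcn2 window held a C/EBP match at −216 to −209 and a PU.1 match at −20 to −15, both on the opposite strand. The S100a8 window held PU.1 matches at −170 to −165 and −36 to −31 on the opposite strand, and a TATA box at −30 to −25 that abuts the second of them without overlap. C/EBP letters occur in 10.8% of the 32851 promoter windows of the same length, PU.1 letters in 28.3% and TATA letters in 13.6%. The matches were not particular to the genes shown. Among the other members, C/EBP letters occurred in the windows of Lyz1, Ngp and S100a9. PU.1 letters occurred in those of Elane and Mpo, and TATA letters in that of S100a9. A further 3 motifs were searched in all 10 windows, GGGANTTCC for NF-kB (1.68% of all windows), TGANTCA for AP-1 (7.81%) and TTCNNNGAA for STAT factors (8.30%), and none of them was found there. Such matches describe letters in these windows and do not show that a factor was bound.

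Lyz1 and Lyz2 encode lysozyme, which cleaves bacterial cell walls. Lyz2 is the form of mouse myeloid cells and Lyz1 that of intestinal Paneth cells. They are neighbours on chromosome 10, with Lyz2 (ENSMUSG00000069516) at 117277334 to 117282274 and Lyz1 (ENSMUSG00000069515) at 117287796 to 117292868, both on the minus strand. Lyz2 ranked first of all genes in every library and took 2.37% of all reads in genes with miR-17 EV, 2.44% with miR-93 EV, 2.86% with control EV and 2.47% in unexposed. Its normalized count was 475861 with miR-17 EV, 491453 with miR-93 EV, 596249 with control EV and 512117 in unexposed. Control EV was the highest library for Lyz2, whereas it was the lowest for Saa3, Lcn2 and S100a8. The Lyz2 ratio was 1.16 (95% interval 1.160 to 1.169) for control EV over unexposed, 0.798 (0.795 to 0.801) for miR-17 EV over control EV and 0.824 (0.821 to 0.827) for miR-93 EV over control EV.

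The normalized count of Lyz1 was 20664 with miR-17 EV, 20342 with miR-93 EV, 19305 with control EV and 21944 in unexposed. These values lay within a log2 range of 0.18, the narrowest of the 10 genes. The Lyz1 ratio was 0.880 (95% interval 0.862 to 0.898) for control EV over unexposed, and the ratios over control EV were 1.07 (1.05 to 1.09) in miR-17 EV and 1.05 (1.03 to 1.08) in miR-93 EV. Lyz1 reads made up 4.16% of the reads of the lysozyme pair in miR-17 EV (exact binomial 95% interval 4.11 to 4.21), 3.97% in miR-93 EV (3.92 to 4.03), 3.14% in control EV (3.09 to 3.18) and 4.11% in unexposed (4.05 to 4.16). The share was lowest in control EV.

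Reads of the lysozyme pair can be hard to place, because the genes are near-copies. Their coding sequences were identical at 422 of 444 bases in the GENCODE M21 principal transcripts, with 22 bases differing. The first coding exon holds 14 of these differences, and its coding stretch is shown for both genes from GRCm38, with the differing bases in capitals.
Lyz1 (chr10:117292703-117292838, minus strand): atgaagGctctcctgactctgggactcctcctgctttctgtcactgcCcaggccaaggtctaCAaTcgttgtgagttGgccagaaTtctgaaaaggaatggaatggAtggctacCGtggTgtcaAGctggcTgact
Lyz2 (chr10:117282107-117282242, minus strand): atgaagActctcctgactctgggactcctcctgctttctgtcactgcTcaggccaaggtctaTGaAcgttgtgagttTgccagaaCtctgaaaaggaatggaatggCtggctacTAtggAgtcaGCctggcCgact

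A short read is less likely to reach a differing base. Of all stretches of 50 bases in the Lyz1 transcript, 16.1% also occur in Lyz2, against 2.06% of stretches of 100 bases. Aligned bases per read of Lyz1 were 59.0 with miR-17 EV, 58.6 with miR-93 EV, 60.9 with control EV and 62.2 in unexposed. Of 11865 genes with at least 100 reads on average, 1.23 to 1.39% had a value at or below that of Lyz1 in its library. Low values were not particular to Lyz1. For Saa3 the share at or below was 4.80 to 6.30%, and for Lcn2 it was 9.49 to 10.7%. Lyz2, with 100.3, 103, 115.5 and 108 aligned bases per read in the same order, lay near the library medians. The values of Lyz1 are uncertain because its reads can be hard to place. The part that read placement and the higher median of aligned bases per read in control EV have in the Lyz1 level and share was not tested.

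**Figure D2:**
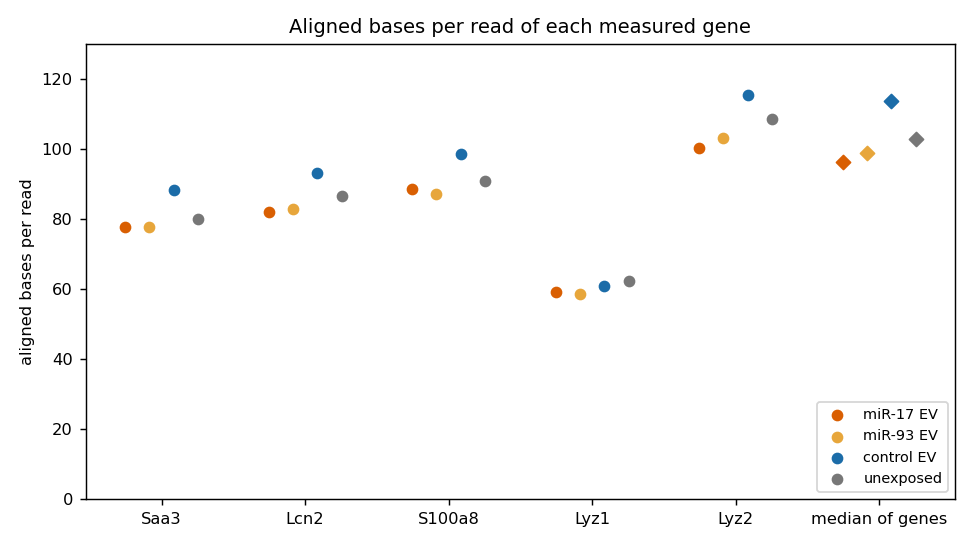
Aligned bases per read of the 5 measured genes in each library, with the median over genes as diamonds. Lyz1 lay between 58.6 and 62.2 in all 4 libraries, below the other genes, and control EV was the highest library for every gene except Lyz1 as well as for the median.

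The remaining genes, mostly of neutrophil granules, were at the edge of detection. Camp (ENSMUSG00000038357, chromosome 9, 109847375 to 109849456), the cathelicidin gene, had 11 reads with miR-17 EV, 2 with miR-93 EV, 6 with control EV and 6 in unexposed. Mpo (ENSMUSG00000009350, chromosome 11, 87793581 to 87804413), the gene of myeloperoxidase, had 1, 4, 7 and 3 reads in that order, and an annotated gene overlaps it. Ngp (ENSMUSG00000032484, chromosome 9, 110419750 to 110423010), a cystatin-like secondary granule gene, had 0 reads in both mimic libraries and 1 each in control EV and unexposed. Elane (ENSMUSG00000020125, chromosome 10, 79886312 to 79888216), neutrophil elastase, had 0 reads in all 3 EV libraries and 1 in unexposed. A count of 0 allows up to 3 reads, or 2.66 normalized counts with miR-17 EV, 2.72 with miR-93 EV and 3.51 with control EV. With S100a9, these 5 genes summed to 16 reads with miR-17 EV, 8 with miR-93 EV, 16 with control EV and 13 in unexposed.

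At such counts few ratios are informative. The Camp ratio for miR-93 EV over miR-17 EV was 0.185 (95% interval 0.0200 to 0.850), resting on 2 and 11 reads. Camp was in the authors' deposited table of changed genes, where its log2 differences were 1.83 for miR-17 EV over control EV, 1.05 for miR-17 EV over unexposed and −1.07 for miR-93 EV over unexposed. In the counts the Camp intervals of these pairs were 0.471 to 4.57, 0.523 to 5.08 and 0.0283 to 1.60, so none of these differences was detectable at this depth. The authors' value for Camp in control EV over unexposed was −0.78, where the counts were 6 and 6 reads, a ratio of 1.11 (0.297 to 4.16). Their value in miR-93 EV over control EV was −0.29, where the interval from counts was 0.0254 to 1.44. The Mpo ratio for miR-17 EV over control EV was 0.108 (0.00240 to 0.843), resting on 1 and 7 reads. All other intervals of these 5 genes included 1.

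The size of all these differences was read against the whole table. Past 2-fold, 0 of the 5 measured genes were called in any pair. The share of all tested genes called was 0.474% in miR-17 EV over unexposed, 0.539% in miR-93 EV over unexposed, 1.28% in control EV over unexposed, 1.51% in miR-17 EV over control EV, 1.46% in miR-93 EV over control EV and 0.265% in miR-93 EV over miR-17 EV. With the threshold lowered to 1.5-fold, Saa3 and Lcn2 were lower in control EV over unexposed, where 3.07% of tested genes were. The same 2 genes were higher in miR-17 EV over control EV, as were 4.9% of tested genes, and in miR-93 EV over control EV, as were 5.03%. S100a8 was inside 1.5-fold in all 6 pairs with this scaling, but its log2 ratios over control EV passed 1.5-fold with scaling to total reads, at 0.62 with miR-17 EV and 0.61 with miR-93 EV. They also did so with the GC correction, at 0.66 and 0.67 in the same order. With average coverage it passed for miR-17 EV only, at 0.63. Of tested genes 11.3% were at or below its value in control EV over unexposed, and 2.86% at or below that of Lcn2.

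The median log2 ratio of the 5 measured genes was −0.36 in control EV over unexposed, where 4 were lower and 1 was higher and the median of all tested genes was 0.00. It was 0.56 in miR-17 EV over control EV and 0.56 in miR-93 EV over control EV, with 4 higher and 1 lower in each, beside medians of −0.02 for all genes in both. The gene on the other side was Lyz2 every time. With the authors' log2 values Lyz1 joined it in control EV over unexposed, at 0.22, and in miR-17 EV over control EV, at −0.008. In miR-93 EV over control EV Lyz1 did not, at 0.03. Against unexposed the medians were small, −0.09 with miR-17 EV and −0.06 with miR-93 EV, beside −0.01 for all genes in both. In miR-93 EV over miR-17 EV the median was −0.00, beside 0.00 for all genes.

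**Figure D3:**
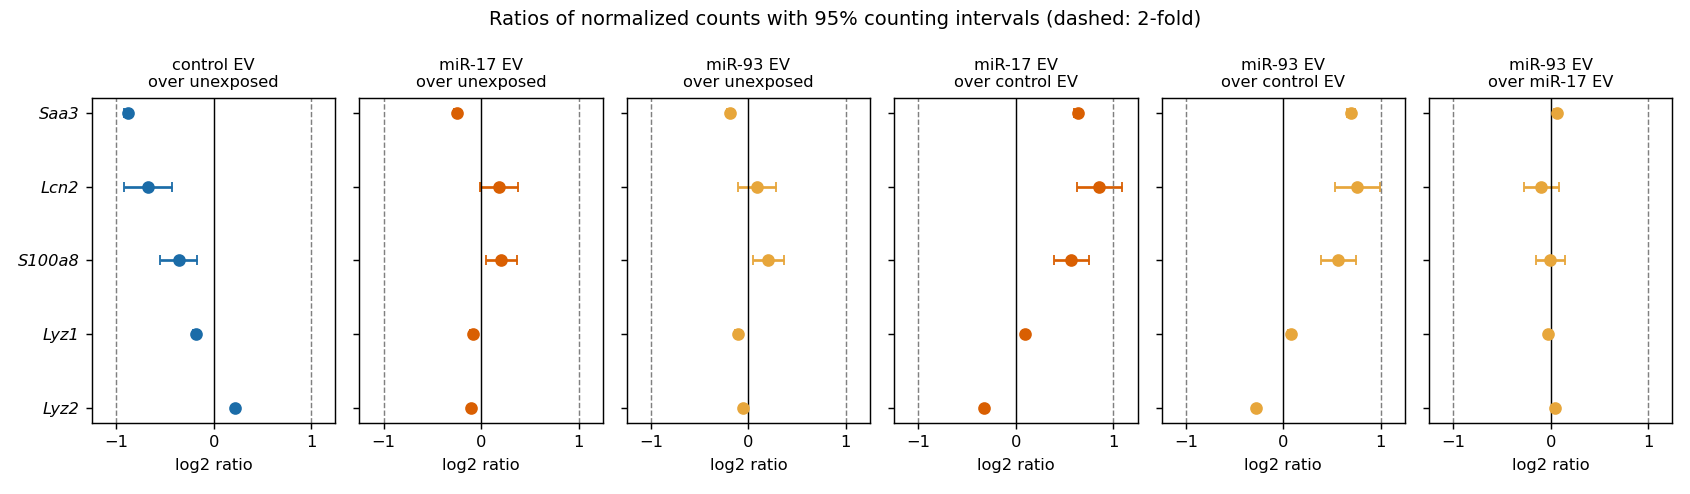
Log2 ratios of normalized counts of the 5 measured genes in the 6 pairs of libraries, with exact 95% intervals of counting error as bars and dashed lines at 2-fold. Saa3 and Lcn2 lay at −0.88 and −0.67 in control EV over unexposed and at 0.63 and 0.85 in miR-17 EV over control EV, while every value in miR-93 EV over miR-17 EV lay between −0.10 and 0.06.

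**Figure D4:**
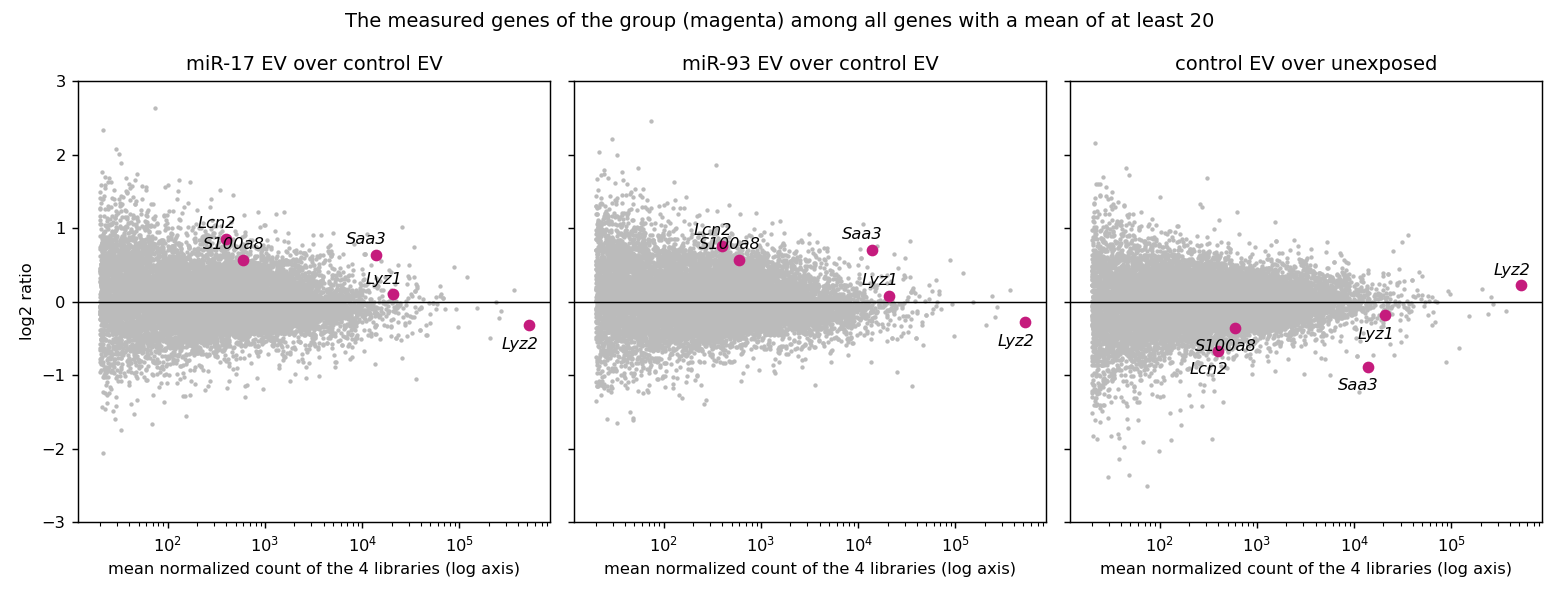
Log2 ratio of every gene with a mean of at least 20 normalized counts (grey) against its mean over the 4 libraries on a log axis, in 3 pairs, with the 5 measured genes in magenta. In control EV over unexposed Saa3 lay at −0.88 below nearly all genes of like abundance, and Lyz2 was the most abundant gene at the far right.

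The control EV library enters 3 of the 6 pairs. Its median of aligned bases per read was the highest, and Saa3, Lcn2 and S100a8 have short principal transcripts of 555, 915 and 486 bases. With average coverage per base in place of reads, the log2 ratios of control EV over unexposed were −0.88 for Saa3, −0.70 for Lcn2 and −0.37 for S100a8. From reads they were −0.88, −0.67 and −0.36. The part of aligned bases per read in these values was not tested. In pooled RNA, fewer cells that make a transcript and less of it per cell cannot be told apart.

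Related genes were counted to set the members in context. The lists were chosen with earlier results of these data known, so their directions are a description and not independent support. Of all tested genes, 49.9% were lower in control EV over unexposed. The share lower was 52.9% in miR-17 EV over control EV and 53.4% in miR-93 EV over control EV. Of the other acute phase genes, 6 of 22 had a pair mean of at least 20 in control EV over unexposed, and all 6 were lower, with a median log2 ratio of −0.27. The smallest differences among the 6 were those of Orm1, C3 and Il1rn, at −0.12, −0.09 and −0.06. Of the 6, 1 passed 2-fold. Serpina3g, a serine protease inhibitor gene, had 57 reads with miR-17 EV, 43 with miR-93 EV, 14 with control EV and 64 in unexposed. Its log2 ratio was −1.98 in control EV over unexposed, 1.57 in miR-17 EV over control EV and 1.20 in miR-93 EV over control EV. Cfb, which encodes complement factor B, was at −0.63, and Cp, which encodes ceruloplasmin, at −0.42 in control EV over unexposed, both short of 2-fold. Orm1 had 18.6, 19.0, 22.3 and 24.2 normalized counts in miR-17 EV, miR-93 EV, control EV and unexposed. The relatives of Saa3 were scarce. Saa1 had 10, 13, 6 and 17 reads and Saa2 had 4, 9, 2 and 5 in the same order, and the coding sequence of Saa3 is identical to that of Saa1 at 76.0% of aligned bases.

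Of the secondary and tertiary granule genes, 8 of 19 were tested in control EV over unexposed. Of these 8 genes, 7 were lower and 1 was higher, with a median log2 ratio of −0.26 and 0 past 2-fold. Mmp8, neutrophil collagenase, had 2498 reads with miR-17 EV, 2409 with miR-93 EV, 1262 with control EV and 2407 in unexposed. Mmp9, gelatinase B, had 352, 385, 189 and 393 reads in that order. Control EV was the low library for both. Their log2 ratios were −0.78 and −0.90 in control EV over unexposed, 0.58 and 0.50 in miR-17 EV over control EV, and 0.56 and 0.65 in miR-93 EV over control EV. Hp, which encodes haptoglobin, was at −0.32 and Cybb, the NADPH oxidase subunit gp91phox, at −0.29 in control EV over unexposed. The median of this list was 0.23 over control EV in each mimic library, with 6 of 8 genes higher in miR-17 EV and 7 of 9 in miR-93 EV.

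The primary granule genes that were tested had no such direction. Of 6 tested in control EV over unexposed, 3 were higher and 3 lower, with a median of −0.00. Cd63, a membrane protein of these granules, was at −0.24 and Srgn, the proteoglycan serglycin, at 0.34, while Gusb and Cst7 lay at 0.05 and −0.06. Prtn3 and Ctsg, the serine protease genes that accompany Elane, had 0 to 3 and 0 to 6 reads in a library. Both were below the minimum, as were Bpi, Prss57 and Ms4a3 of this list. The directions given for the tested genes do not cover these genes. Over control EV the list had medians of −0.07 with miR-17 EV and 0.02 with miR-93 EV.

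Among other antimicrobial genes, 7 of 13 were higher and 6 lower in control EV over unexposed, with a median of 0.01. Slpi, a secreted inhibitor of neutrophil elastase, had 3675 reads with miR-17 EV, 3313 with miR-93 EV, 1707 with control EV and 2887 in unexposed. Its log2 ratio was −0.61 in control EV over unexposed, 0.71 in miR-17 EV over control EV and 0.58 in miR-93 EV over control EV, with the low library the same as for Saa3. Rnase4 and Ang, which encode ribonucleases, lay the other way, at −0.53 and −0.58 in miR-17 EV over control EV and −0.35 and −0.38 in miR-93 EV over control EV. Nos2, the inducible nitric oxide synthase, was at −0.29 in control EV over unexposed and 0.62 in miR-93 EV over control EV.

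Of the other S100 genes, 6 of 11 were tested in control EV over unexposed, and 4 were higher and 2 lower, with a median of 0.20, where S100a8 was at −0.36. Over control EV, 5 of 6 were lower in each mimic library. S100a4, a regulator of cell motility, was at 0.54 in control EV over unexposed, −0.35 in miR-17 EV over control EV and −0.42 in miR-93 EV over control EV. S100a1 and S100a13 were at 0.37 and 0.24 in control EV over unexposed, and S100a11 at −0.43. None of the 6 tested genes passed 2-fold in these pairs.

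Transcription factors known from granule and acute phase genes differed little. In control EV over unexposed 6 of 12 were higher and 6 lower, with a median of 0.01. Cebpa was at −0.24, Spi1, the gene of PU.1, at −0.10, the NF-kB subunit gene Rela at 0.15 and Nfkbiz, a nuclear co-regulator of Lcn2, at −0.10. Over control EV, 2 of 12 were higher and 10 lower in both mimic libraries, with medians of −0.08 with miR-17 EV and −0.16 with miR-93 EV. Of the inducers and receptors 15 of 19 were tested, and 0 passed 2-fold in any of these pairs. Cd36, a scavenger receptor gene, was at −0.46 in control EV over unexposed, 0.74 in miR-17 EV over control EV and 0.82 in miR-93 EV over control EV. Tlr4, the lipopolysaccharide receptor gene, was at −0.29, 0.44 and 0.56 in the same order of pairs, whereas Tlr2 was at 0.50, −0.59 and −0.52. Il1a was at −0.22, 0.42 and 0.72.

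**Figure D5:**
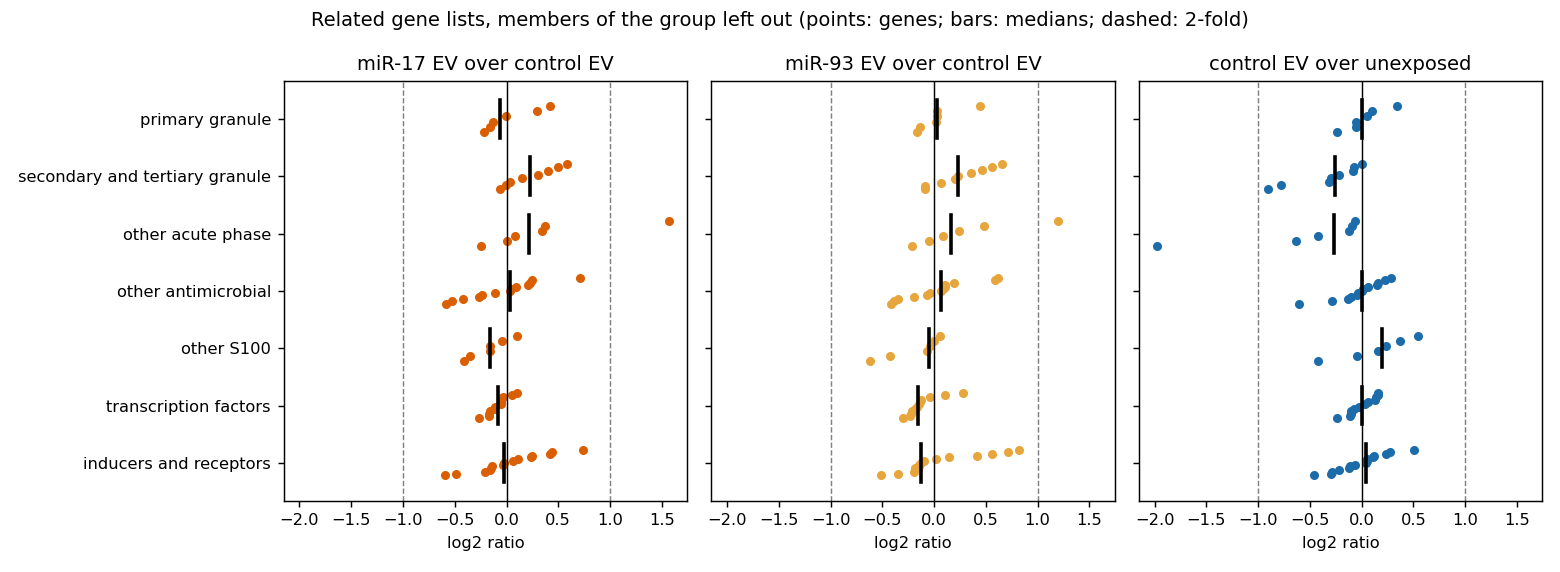
Log2 ratios of the tested genes in 7 lists of related genes, 1 point per gene, with a bar at the median of each list and dashed lines at 2-fold. The other acute phase list had medians of 0.21 in miR-17 EV over control EV, 0.16 in miR-93 EV over control EV and −0.27 in control EV over unexposed, and Serpina3g was its only gene past 2-fold.

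Markers of the granulocyte lineage were read beside these values. The 10 neutrophil markers summed to 3520 normalized counts with miR-17 EV, 3438 with miR-93 EV, 2921 with control EV and 3926 in unexposed, nearly all of it from Mmp8 and Csf3r. Retnlg and Stfa2 were at 0 in every library, and Cxcr2 and Ltf had at most 4 and 12 reads. The 7 markers of granulocyte progenitors summed to 37.3, 38.0, 34.0 and 61.1 normalized counts in the same order, with 0 of 7 at the minimum of 20. Csf3r, the G-CSF receptor gene, was at a log2 ratio of 0.04 in control EV over unexposed, where Mmp8 was at −0.78. Hdc, another marker of the list, passed 2-fold at −1.04 in miR-17 EV over control EV, with 20 and 32 reads. Markers of other cell types that passed 2-fold in control EV over unexposed were the dendritic cell gene Fscn1, at a log2 ratio of −1.15, and the fibroblast gene Col1a1, at −1.10. Of 2 dendritic cell markers tested in this pair, 1 was lower and 1 was higher, and of 2 fibroblast markers both were lower. Of all tested genes, 1.28% passed 2-fold in this pair. The part of other cells in the values of the granule genes was not tested.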

How the data were processed

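RNA of 4 pooled cultures per group was extracted with MiRNeasy kits and sequenced from Ion Total RNA-Seq Kit v2 libraries, per the labels. The authors deposited raw, unscaled counts of reads per gene, beside an average coverage signal that is not adjusted for depth and a GC content in percent, per the file headers. The authors' deposited log2 values have, for each gene, a median of 0 over the 4 libraries. The submitters' processing notes name mm10 and DESeq without versions. Aligner, annotation and strand setting: not given in the sources used here; thus reads of overlapping or near-identical genes can have been shared.

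From the counts, median-of-ratios size factors, ratios with Clopper-Pearson 95% intervals and log2 ratios with a pseudocount of 1 were computed over all 38087 genes with Python 3.11.15 and SciPy 1.17.1. Molecular identifiers were not used, so that reads are not independent molecules, and intervals and the limit of 3 counts cover counting error only. Older symbols were matched by GENCODE identifiers. The call rule was tested on simulated data that held counting error only, with no spread between cultures. TMM factors came from edgeR 4.0.16, used for scaling only. Members and lists were chosen with earlier results of these data known. Genes named were all 10 members and, per list, those past 2-fold or otherwise up to 4 with the widest log2 range. A few others (Csf3r, Saa1, Saa2, C3, Il1rn, Prtn3, Ctsg, Bpi, Prss57, Ms4a3, Il6, Cebpe and the neutrophil markers) were named after their values were seen. No member was variable enough for a search for genes of like pattern. Alternatives were other scalings, minimums, pseudocounts and thresholds, coverage, a GC correction and the authors' log2 values.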

Additional observations from a re-analysis of the deposited data

How the results depend on the processing

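No paired analysis was possible because each group was 1 library. No library could be left out, and no interval covers the spread between cultures. The count of 0 genes past 2-fold held under every scaling, minimum of 100, pseudocount, coverage and GC setting. Lowering the threshold to 1.5-fold gave 2 genes, Saa3 and Lcn2, in control EV over unexposed, and the same 2 in miR-17 EV over control EV and in miR-93 EV over control EV. Without a minimum, 1 gene was called in miR-17 EV over control EV (Mpo, 1 against 7 reads) and 1 in miR-93 EV over miR-17 EV (Camp, 2 against 11 reads). With the authors' log2 values, 1 gene was called in miR-17 EV over control EV, Lcn2. The cause of the last difference was not tested.

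Over all alternatives the log2 ratio in control EV over unexposed was −0.94 to −0.88 for Saa3, −0.85 to −0.61 for Lcn2 and −0.42 to −0.22 for S100a8. For Lyz2 it was 0.13 to 0.30. Lyz1 had no stable direction, at −0.35 to 0.22 in that pair. Of 30 ratios of the 5 measured genes, 5 changed sign with the authors' log2 values, all of them of Lyz1, 1 changed sign with the GC correction (S100a8 in miR-93 EV over miR-17 EV, where it was near 0), and 0 did so elsewhere. Size factors from the 2 libraries of a pair alone, chosen after seeing the data, changed 0 signs. Of the 30 ratios, 15 left their interval of counting error with the authors' log2 values and 14 with scaling to total reads. The count was 13 with average coverage, 13 with the GC correction, 6 with these pair factors and 5 with TMM factors. It was 0 with another minimum, pseudocount or threshold. Over all alternatives Lyz2 in miR-93 EV over control EV had a log2 ratio of −0.35 to −0.16. The printed intervals do not cover the choice of processing.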

Other observations

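Il6, which encodes an inducer of acute phase genes, had 13 reads with miR-17 EV, 6 with miR-93 EV, 5 with control EV and 0 in unexposed. Ltf, the lactoferrin gene of secondary granules, had 12, 3, 3 and 0 reads in the same order. Both were below the minimum of 20 normalized counts in every library. Cebpe, a transcription factor gene of late granulocyte development, had 12 reads with miR-17 EV, 7 with miR-93 EV, 5 with control EV and 21 in unexposed.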
